A study of Mus musculus with 40 samples.

Results

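Fragments of mouse open chromatin that scored as active in reporter cells were compared between hemangioblast-like cells (HB) and the first stage of hemogenic endothelium (HE1), to ask which regions and nearby genes were gained, lost or kept as cells moved from one stage to the next. An active, or positive, fragment was one found in the Low, Medium or High reporter gate of a sort, and the positive set of a sort was the union of those 3 gates. In replicate 1 this gave 38953 fragments in 12385 regions at HB and 101943 fragments in 19241 regions at HE1. In replicate 2 it gave 12209 fragments in 10997 regions at HB and 34809 fragments in 22833 regions at HE1. A region was a stretch of genome covered by overlapping fragments of any of the 40 libraries of the series, with a median width of 264 bp. In all, 50053 of the 75060 regions and 179875 of the 354627 different fragments were positive at HB or HE1.

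All cells came from HM-1, a mouse embryonic stem (ES) cell line of strain 129/ola with a non-functional Hprt locus. Open-chromatin fragments cut by Tn5 transposase from ES, HB, HE1, HE2 and HP cells were cloned upstream of the HSP68 minimal promoter and a Venus-YFP reporter, the plasmid libraries were mixed before transfection, and constructs were targeted to the Hprt locus, which it repaired. Thus HB and HE1 cells carried the same kind of construct and had passed the same selection as ES cells. HB cells were FLK1+ cells, and HE1 cells were KIT+ TIE2+ CD41- cells from blast culture with VEGF and IL-6. Each stage was sorted by YFP into Negative, Low, Medium and High gates, in 2 replicates, so the gates of a stage and replicate are taken here as parts of 1 sort and not as independent samples. Nothing in the labels says whether the replicates started from separate transfections. The files hold only DNA of the inserted fragments, so RNA markers of HB or HE1 cells could not be checked.

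Hemangioblast-like cells are mesodermal cells that can form endothelium, smooth muscle and blood. Hemogenic endothelium is the endothelium from which blood cells arise, and its first stage still carries endothelial markers before the blood programme led by RUNX1 takes over. ETS and SOX factors are known for endothelial enhancers, RUNX, GATA and PU.1 (Spi1) for blood enhancers, AP-1 (FOS and JUN) for enhancers that answer to growth factor and matrix signals, and TEAD, with its co-factor YAP, for enhancers that answer to cell shape and adhesion. An enhancer fragment in front of a minimal promoter raises the reporter in cells that hold the right factors, so the same construct can be dark at one stage and bright at the next.

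The sequences below, given on the forward strand of GRCm38 (mm10), are positive fragments of replicate 1. Each is named by the gene with the nearest transcription start site. The fragments at Ptgis, Egfl7, Ptprb, Epas1, Cic and Smg9 lay in regions with more positive fragments at HE1 of replicate 1 (all but Epas1 without any at HB). Those at Kdm6b, Mir17 and Tead3 lay in regions without a positive fragment at HE1 of replicate 1, and that at Myo1c lay in a region kept in both replicates. At HE1 of replicate 2 the Kdm6b and Mir17 regions had 3 and 1 positive fragments. Capitals mark matches, on either strand, to AP-1 (TGACTCA or TGAGTCA), ETS (AGGAAGT or CGGAAGT), RUNX (TGTGGTC or TGTGGTT) and SOX (ACAAAGG or ACAATGG). The Ptgis fragment holds 1 AP-1 match, Cic and Smg9 2 each, Egfl7 a RUNX and a SOX match, Ptprb an ETS match, Epas1 a SOX and an ETS match, and Mir17 an ETS match. Kdm6b, Tead3 and Myo1c hold no match to these letters. For each region the fragment shown is the one, of at most 300 bp, with the most of these matches. The matches are therefore a result of that choice and not typical of the regions. Fragments chosen in the same way at Phf19 (HE1 sort) and Sox12 (HB sort), not printed here, held none. A match is a run of letters and not a measured binding site.
Ptgis (HE1 sort, chr2:167293525-167293798): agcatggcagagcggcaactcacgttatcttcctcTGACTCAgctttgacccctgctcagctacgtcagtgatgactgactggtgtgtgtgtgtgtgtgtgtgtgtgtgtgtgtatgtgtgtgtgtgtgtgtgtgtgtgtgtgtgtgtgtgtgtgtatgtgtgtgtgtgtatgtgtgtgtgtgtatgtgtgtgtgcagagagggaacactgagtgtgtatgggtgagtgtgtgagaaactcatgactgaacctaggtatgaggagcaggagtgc
Egfl7 (HE1 sort, chr2:26576047-26576234): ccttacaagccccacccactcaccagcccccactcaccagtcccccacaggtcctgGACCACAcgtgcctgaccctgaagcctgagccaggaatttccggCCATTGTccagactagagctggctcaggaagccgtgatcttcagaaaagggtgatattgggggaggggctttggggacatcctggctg
Ptprb (HE1 sort, chr10:116254064-116254254): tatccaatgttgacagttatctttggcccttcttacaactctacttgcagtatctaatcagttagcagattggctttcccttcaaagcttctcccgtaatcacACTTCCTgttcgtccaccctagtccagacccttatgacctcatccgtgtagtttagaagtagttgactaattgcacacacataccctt
Epas1 (HE1 sort, chr17:86732132-86732368): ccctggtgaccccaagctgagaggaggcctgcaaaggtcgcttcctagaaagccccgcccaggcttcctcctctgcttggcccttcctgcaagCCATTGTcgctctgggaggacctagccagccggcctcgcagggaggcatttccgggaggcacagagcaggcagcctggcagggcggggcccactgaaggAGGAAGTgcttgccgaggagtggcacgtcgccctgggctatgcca
Cic (HE1 sort, chr7:25280430-25280604): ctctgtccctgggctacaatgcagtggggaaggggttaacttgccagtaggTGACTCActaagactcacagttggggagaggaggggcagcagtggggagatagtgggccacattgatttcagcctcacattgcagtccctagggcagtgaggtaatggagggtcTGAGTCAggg
Smg9 (HE1 sort, chr7:24387315-24387512): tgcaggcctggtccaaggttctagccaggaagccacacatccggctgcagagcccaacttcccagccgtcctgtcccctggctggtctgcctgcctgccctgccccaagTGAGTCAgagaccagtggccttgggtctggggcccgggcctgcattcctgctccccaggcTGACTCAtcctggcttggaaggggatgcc
Kdm6b (HB sort, chr11:69411327-69411445): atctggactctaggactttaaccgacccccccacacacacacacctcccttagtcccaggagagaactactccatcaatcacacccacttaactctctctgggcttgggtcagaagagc
Mir17 (HB sort, chr14:115040747-115040929): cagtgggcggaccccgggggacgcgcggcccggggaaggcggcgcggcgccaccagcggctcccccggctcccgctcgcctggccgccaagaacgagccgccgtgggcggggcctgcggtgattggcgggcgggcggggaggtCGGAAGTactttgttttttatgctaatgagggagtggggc
Tead3 (HB sort, chr17:28341199-28341356): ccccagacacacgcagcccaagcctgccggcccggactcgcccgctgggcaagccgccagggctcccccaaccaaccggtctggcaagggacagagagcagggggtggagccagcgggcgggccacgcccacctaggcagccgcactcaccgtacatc
Myo1c (HE1 sort, chr11:75654043-75654309): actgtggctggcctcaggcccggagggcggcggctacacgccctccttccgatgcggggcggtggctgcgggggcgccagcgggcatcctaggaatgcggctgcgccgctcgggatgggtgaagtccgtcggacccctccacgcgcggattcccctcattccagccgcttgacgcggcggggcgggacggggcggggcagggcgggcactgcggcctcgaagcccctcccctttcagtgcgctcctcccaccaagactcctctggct

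Libraries held between 7468 and 16343 positive fragments per gate at HB and between 15458 and 51146 at HE1 in replicate 1, and between 3569 and 5931 at HB and 1413 and 31915 at HE1 in replicate 2. A file lists each fragment once, so a count below is a number of different fragments and not of cells or reads. Intervals and tests cover counting error only. A library of HE1 in each replicate stood apart. In HE1 Medium of replicate 1, 56.4% of the fragments were also in the HE1 Negative library, against between 1.38% and 4.92% in the other positive libraries of that replicate. HE1 Low of replicate 2 held 31915 fragments with a median length of 339 bp, against between 183 and 222 bp in the other positive libraries of that replicate. Replicate 1 held between 1.56 and 3.30 fragments per region per library and replicate 2 between 1.05 and 1.53, so most regions of replicate 2 rested on 1 fragment.

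Positive regions of HB and HE1 overlapped in part when both sets held the same number of fragments. In replicate 1, with 38953 fragments at each stage, 6977 regions were kept, 5408 were lost and 7453 were gained. The kept regions were 56.3% ± 0.279 of those at HB (SD over 20 draws of the larger set) and 48.4% of those at HE1. In replicate 2, with 12209 fragments each, 1995 regions were kept, 9002 lost and 7670 gained, and the kept share was 18.1% ± 0.270 of HB and 20.6% of HE1. With all fragments, 8246 regions were kept, 4139 lost and 10995 gained in replicate 1, and 3484, 7513 and 19349 in replicate 2. Regions counted as lost or gained include those that 2 samplings of the same stage would not share. Single positive gates, thinned to the smallest of their replicate, were compared by the Jaccard index (shared regions over all regions of both). Its mean was 25.9% in replicate 1 and 3.19% in replicate 2 within a stage, against 19.7% and 3.21% between stages. The kept shares above are another measure at greater depth, and the Jaccard indices of those thinned positive sets were 35.2% and 10.7%. With 2 replicates no test of the kept shares can reach p below 0.5 (exact permutation), so they are given as values.

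Negative libraries overlapped in part as well. At 8426 fragments a set, 36.5% of the positive HB regions and 37.9% of the Negative HB regions of replicate 1 were found again at HE1. At 2773 fragments a set, these shares were 6.87% for positive and 31.8% for Negative libraries in replicate 2. In replicate 2 the positive sets had been cut from 12209 and 34809 fragments, while the Negative libraries, of 3056 and 2773, were used nearly whole. With all fragments the positive share was 0.0685 percentage points above the Negative share in replicate 2 and differed by -4.80 points in replicate 1. Those shares compare positive and Negative sets of unequal size. What the gap of replicate 2 at equal depth rested on was not tested.

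**Figure D1:**
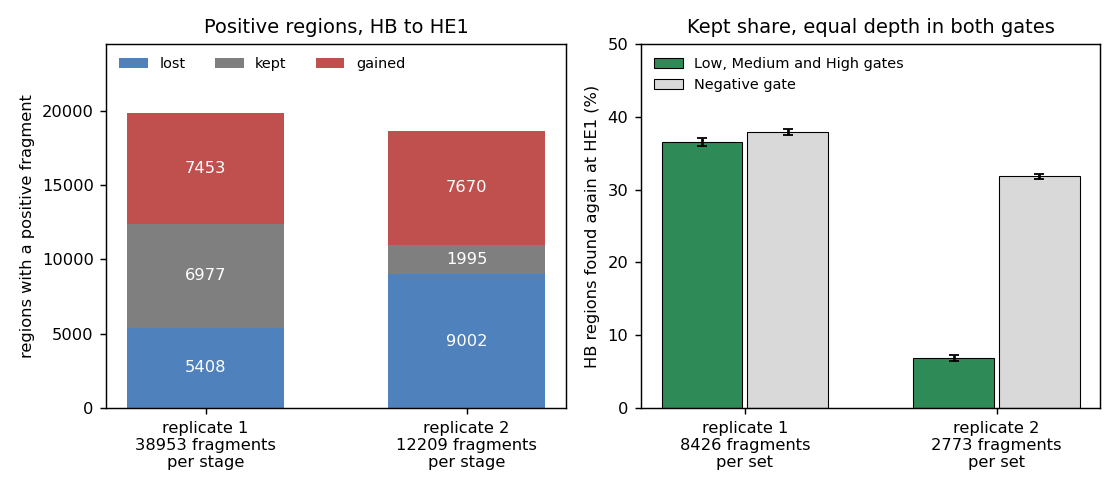
Numbers of regions lost, kept and gained from HB to HE1 in each replicate (left), with positive sets thinned to the smaller of the pair, and the kept share of HB regions in percent for positive and Negative libraries cut to the same number of fragments (right; error bars, SD over draws). More regions were kept in replicate 1 (6977) than in replicate 2 (1995), and the Negative share was 37.9% in replicate 1 and 31.8% in replicate 2.

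Libraries of the same stage shared more regions than libraries of different stages in replicate 1. There, pairs of positive libraries of the same stage shared between 23.4% and 28.6% of their regions (Jaccard index, the shared regions over all regions of both), and pairs of HB with HE1 libraries between 18.2% and 21.1%, with no overlap between the ranges. The difference of the means was 6.13 percentage points with an exact permutation p of 0.100, the smallest p that 1 replicate allows. The ranges of replicate 2 were 1.52% to 5.75% and 1.97% to 5.73% and the difference was -0.0213 points (exact permutation p = 0.900). Over both replicates it was 3.06 points (two-sided exact permutation test, p = 0.050). These permutations exchange gates of the same sort, so their p-values do not measure the spread between replicates. Pairs with a Negative library showed the same order in replicate 1, with 23.6% to 30.0% within a stage and 18.7% to 20.7% between stages. Among the 10 pairs of stages, HB and HE1 stood at rank 6 in replicate 1 with a Jaccard index of 32.9% and at rank 9 in replicate 2 with 4.30%, where the highest pairs were HE1 with HE2 (47.4%) and HE2 with HP (12.3%).

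More single regions were called higher at HE1 in replicate 1 than in replicate 2, where far fewer could be tested. Fisher's exact test on the positive fragments of each region, set against all positive fragments of the sort, found 55 of 4101 regions higher at HE1 in replicate 1 (1.34% of those tested) and 15 lower (0.366%). Replicate 2 had 231 regions with at least 10 fragments, of which 2 were higher (0.866%) and 2 lower (0.866%). None of the 24 regions tested in both replicates passed the adjusted threshold in both in the same direction (0%). At an unadjusted p under 0.05 there were 809 regions in replicate 1, 65 in replicate 2 and 0 that moved the same way in both, while limma over the 12 positive libraries called 0 of 4906, with 390 at an unadjusted p under 0.05. Across these 24 regions the log2 changes of the replicates had a Pearson correlation of -0.441 and a Spearman correlation of -0.421, a description over regions and not over samples. A Cochran-Mantel-Haenszel test with the replicate as block called 15 of 4612 regions, 3 higher and 12 lower. The count in replicate 1 moved with the libraries used, and was 5 without HB Medium and 183 without HE1 High.

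The region with the most new fragments lay in an intron of Phf19, a Polycomb-like partner of the PRC2 complex, on chromosome 2 from 34904620 to 34905546. It held 0 fragments in each of the 4 HB gates of replicate 1. At HE1 it held 44 in the Negative gate, 20 in Low, 44 in Medium and 36 in High, or 92 different positive fragments. Every HE1 gate was thus above every HB gate, and the region was at least 11.7-fold higher at HE1 (against 3 counts over the HB positive set; adjusted p = 7.62e-10 by Fisher's exact test). The same region had, in replicate 2, 3 positive fragments at HB and 0 at HE1. It was also positive at ES (50 fragments) and HE2 (47) of replicate 1.

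Of the other higher regions, 4 are given here, chosen after their values were seen and not by rank. Regions near Trappc9, Glis2, Pex2, Cln6 and Tbc1d24 had lower adjusted p (0.00283 to 0.0110, Fisher's exact test). The 4 are therefore not typical of the called set as a whole. Near Egfl7, which encodes a factor secreted by endothelium, a region on chromosome 2 from 26575578 to 26576704 had 0 fragments in all HB gates and 18, 4, 23 and 6 in the Negative, Low, Medium and High gates of HE1. Near Ptgis, the prostacyclin synthase gene, HE1 counts were 6, 1, 26 and 5 against 0 in all HB gates. Upstream of Col18a1, the collagen from which endostatin is cut, they were 4, 5, 14 and 12 against 0. Each of these 3 regions held 31 positive fragments at HE1, at least 3.95-fold more than at HB (adjusted p = 0.0139, Fisher's exact test). Within Tmem204 (intronic), HE1 Medium held 31 fragments, Low 2 and High 1. None of these 4 regions had a positive fragment at HB or HE1 of replicate 2.

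Counts in some regions came nearly all from HE1 Medium of replicate 1, the library that shared most of its fragments with the Negative gate. For an intronic region of Adam19, a metalloprotease gene, it held 49 fragments against 1 in Low and 0 in High. Near Rny3, a Y RNA gene, it held 47 against 1 and 5, and near Igfbp2, which encodes a binding protein for insulin-like growth factors, 37 against 0 and 0. In 36 of the 55 higher regions over 50% of the HE1 positive fragments were in that library, as in 44.1% of the 4097 tested regions with HE1 fragments. With that library and HE1 Low of replicate 2 left out, 28 of the 55 were still called and 54 kept their direction. The direction was nearly fixed in advance, since 54 of the 55 had no positive HB fragment and no HB library was left out.

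The higher regions shared a pattern over gates. The test itself used the Low, Medium and High counts of both stages, so only the Negative gate was new to it. Of the 55, 54 had no fragment in any of the 4 HB gates of replicate 1, the Negative gate included, and 52 had fragments in all 4 HE1 gates. Negative HE1 counts ran from 3 to 44 with a median of 10, beside positive counts of 23 to 92 with a median of 27. Among all regions of replicate 1 with at least 20 fragments at HE1 in any gate, 118 of 777 (15.2%) had none in any HB gate, while 0 of the 140 regions with at least 20 fragments at HB lacked HE1 fragments. HB libraries were smaller, which moves these shares. Positive and Negative counts are not independent here, since 69.8% of the fragments of HE1 Negative were also in HE1 Medium. The methods describe a filter of fragments by the open chromatin of the stage; whether it shaped the deposited lists, and its part in these absences, was not tested.

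**Figure D2:**
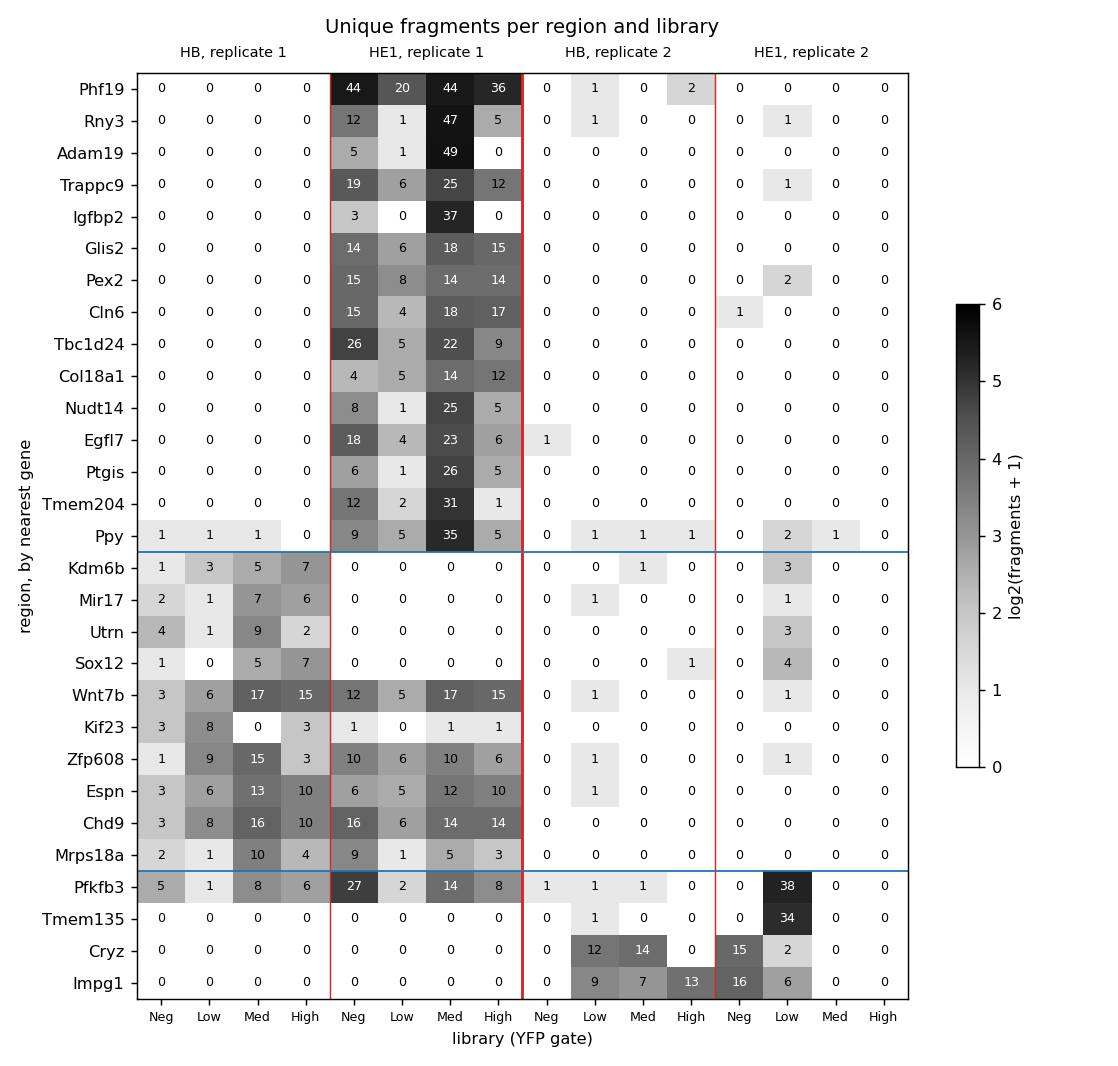
Unique fragments (number in each cell, shade on a log2 scale of fragments + 1) of called regions, one line per region named by its nearest gene, in each gate of HB and HE1 in both replicates; the upper block was higher at HE1 of replicate 1, the middle block lower, and the last 4 lines were called in replicate 2. All upper regions but Ppy hold 0 in the HB gates of replicate 1, the Negative gate included.

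Other stages held many of the same regions. Of the 55 higher regions, 52 were positive at HE2, 31 at HP and 19 at ES in replicate 1. These regions held 23 to 92 positive fragments each at HE1. The same shares over all tested regions are not given here, so the counts cannot be read as particular to the called ones. Across all regions of replicate 1, 71.0% of gained, 29.9% of lost and 90.4% of kept regions were positive at HE2, and 38.8%, 29.1% and 80.3% at HP. At ES the order turned, with 14.4% of gained, 31.0% of lost and 63.7% of kept regions. In replicate 2, 3.10% of gained, 9.36% of lost and 30.2% of kept regions were positive at HE2, so the gained regions were there the least shared. These are shares of regions with no test.

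At the minimum of 10 fragments, fewer regions of replicate 1 were called lower (15) than higher (55) at HE1. That order depended on the minimum, since at 5 fragments 45 were called higher and 55 lower. Among the 15 of replicate 1, HB counts ran from 9 to 38 with a median of 15 and HE1 counts from 0 to 36 with a median of 8, and 4 of the 15 had no fragment in any HE1 gate. These 4 lay near Kdm6b, Mir17, Utrn and Sox12. In an intron of Kdm6b, which encodes a demethylase of the H3K27me3 mark, the HB gates held 1, 3, 5 and 7 fragments from Negative to High (15 different positive fragments), and all HE1 gates 0, so that it was at least 13.1-fold lower (adjusted p = 8.62e-06, Fisher's exact test). Near Mir17, of the miR-17-92 cluster, HB gates held 2, 1, 7 and 6 and HE1 gates 0 (at least 12.2-fold lower). Near Utrn, the utrophin gene, they held 4, 1, 9 and 2 (at least 10.5-fold lower), and in an exon of Sox12, a SOX factor of group C, 1, 0, 5 and 7 (at least 9.60-fold lower). In replicate 2 the 4 regions, in the same order, had 1, 1, 0 and 1 positive fragments at HB and 3, 1, 3 and 4 at HE1, too few to test, so none was lost there.

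The other lower regions kept fragments at HE1. Upstream of Wnt7b, a Wnt ligand gene, 38 positive fragments at HB faced 36 at HE1, although the HE1 set was larger (9.76 and 3.53 per 10000, adjusted p = 0.00682). At an intronic region of Kif23, a kinesin of cell division, HB Low held 8 fragments, Medium 0 and High 3, against 0, 1 and 1 at HE1. With both libraries that stood apart left out, 8 of the 15 were still called, and all 15 kept their direction.

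The 4 called regions of replicate 2 each turned on 1 or a few libraries. In an intron of Pfkfb3, a glycolysis regulator, HE1 Low held 38 fragments and HE1 Medium and High 0, against 1, 1 and 0 at HB, and in an intron of Tmem135 HE1 Low held 34. Near Cryz, HB Low and Medium held 12 and 14 fragments, which were 15 different ones, while HE1 Low held 2 and HE1 Negative 15. Near Impg1, HB Low, Medium and High held 9, 7 and 13, while HE1 Low held 6 and HE1 Negative 16. At these last 2 regions the HE1 fragments stood mostly in the Negative gate, while HB Negative held 0. Replicate 1 had no fragment of either stage at Tmem135, Cryz or Impg1. At Pfkfb3 it had 15 positive fragments at HB and 22 at HE1, or 3.85 and 2.16 per 10000 (log2 change -0.85, adjusted p = 0.339), the opposite direction.

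With all fragments, 524 regions were gained in both replicates, 142 lost in both and 514 kept in both, while 345 were gained in replicate 1 and lost in replicate 2 and 286 the reverse. Of the 524 gained, 74 had at least 2 HE1 fragments in each replicate, and 453 also had a fragment in an HE1 Negative library. The 10 with the highest counts lay near Trappc9, Pex2, Cic, Nfia, 1700001O22Rik, Unc5d, Tnrc6a, Cyria, Smg9 and Ppp1r18. In an intron of Cic, a transcriptional repressor of the RAS and MAPK pathway, HE1 gates of replicate 1 held 8, 2, 11 and 10 fragments and HE1 Low of replicate 2 held 2, with 0 in every HB gate. Near Smg9, a gene of nonsense-mediated decay, they held 6, 4, 9 and 10, and HE1 Low of replicate 2 held 1. For Nfia, a nuclear factor I gene, the intronic region differed, as the weight lay in replicate 2, with 9 fragments in HE1 Low against 1 each in Low and High of replicate 1 and 1 in HB Negative.

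Regions lost in both replicates rested on few fragments. Among the 142, 5 had at least 2 HB fragments in each replicate, and 10 had a fragment in an HE1 Negative library. In an intron of Tead3, a TEAD factor gene, HB Low, Medium and High held 1, 3 and 4 fragments in replicate 1 and HB High held 1 in replicate 2, with 0 in every HE1 gate. Near Slc27a1, a fatty acid transporter gene, HB High held 3 fragments in replicate 1, and HB Low, Medium and High held 1, 2 and 2 in replicate 2. Near Tspyl3 the positive counts were 4 and 2 at HB, and near Hivep1 6 and 1. The 10 strongest kept regions included one in an intron of Myo1c with 24 and 44 positive fragments at HB and HE1 of replicate 1 and 3 and 8 in replicate 2, and one near Myo18a with 19 and 45, then 3 and 6.

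Few regions that changed in 1 replicate were seen in the other at equal depth. Of the regions gained in replicate 1, 2.16% (95% exact interval 1.84% to 2.52%) were positive at HE1 alone in replicate 2 and 4.41% (3.96% to 4.91%) at HB alone. Of those lost in replicate 1, 3.20% were positive at HE1 alone and 4.51% at HB alone in replicate 2. Among changed regions that were positive at only 1 stage of the other replicate, 45.5% had moved the same way. The share was 53.2% without the 2 libraries that stood apart.

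Summed by the gene with the nearest start site, fragments changed at 80 of 4416 genes upward (1.81%) and 33 downward (0.747%) in replicate 1. In replicate 2, 0 of 942 genes rose (0%) and 1 fell (0.106%), which was Cryz. None of the 490 genes tested in both passed in both (0%). At an unadjusted p under 0.05 there were 809 genes in replicate 1 and 86 in replicate 2, of which 4 moved the same way in both and 3 opposite ways. The block test called 29 of 5694 genes, 11 higher and 18 lower, and limma called 0 of 5894, with 532 at an unadjusted p under 0.05. Of the genes called in replicate 1, 99 had a positive fragment in replicate 2, 46 of them with a change in the same direction, and 14 could be tested there. At 59 of the 80 higher genes HB had 0 positive fragments, and at 71 it had 0 in the Negative gate. Of the 80 and the 33, 45 and 10 were still called without the 2 libraries that stood apart.

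Zmynd8 was among the genes that moved the same way in both replicates at an unadjusted p under 0.05, and was chosen for that after its values were seen. Zmynd8, a reader of histone marks, had 8 positive fragments at HB and 68 at HE1 in replicate 1 (2.05 and 6.67 per 10000) and 6 and 42 in replicate 2 (4.92 and 12.1). Its adjusted p by Fisher's exact test was 0.0290 in replicate 1 and 0.490 in replicate 2. All 42 HE1 fragments of replicate 2 were in HE1 Low, the library that stood apart, with 0 in Medium and High.

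**Figure D3:**
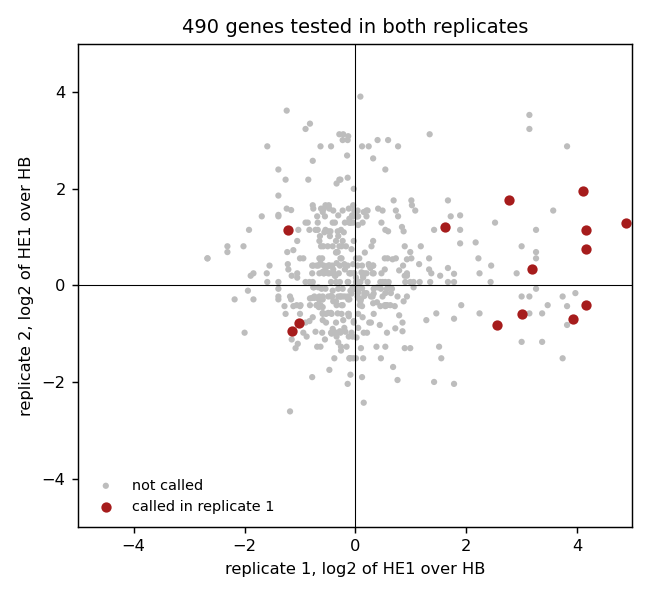
Change from HB to HE1 (log2 of HE1 over HB, fragments per 10000) of each gene tested in both replicates, replicate 1 on the horizontal and replicate 2 on the vertical axis, with red points for genes called in replicate 1. Pearson's r over these genes is -0.00380, with 242 of 490 genes of the same sign.

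Endothelial lists had higher medians than all genes in replicate 1. Endothelial surface and junction genes held 57.5 positive fragments per 10000 at HB and 82.2 at HE1, and 19 of their 23 tested genes were above 0, with a median log2 change of 0.64. Over all 4416 genes tested, 2086 were above 0 and the median was -0.09. Of these 23, 1 rose and 0 fell past the threshold. In the Negative gate the same list held 84.3 and 85.8. Endothelial factors went from 51.9 to 63.8 per 10000, with 13 of 18 above 0, 1 called higher, and a median of 0.39, which was 0.30 with genes at 0 put at their bound. Their Negative gate went from 74.8 to 66.2. In replicate 2 the first list held 30.3 and 31.6 per 10000 and the second 39.3 and 27.9, with 3 and 6 genes tested and none called.

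Ptprb, the endothelial phosphatase VE-PTP, had 0 fragments in every HB gate of replicate 1 and 13, 5, 16 and 10 in the HE1 gates from Negative to High, spread over 8 regions. Its 30 positive fragments were at least 3.82-fold more than at HB (adjusted p = 0.0120, Fisher's exact test), and replicate 2 had 0 and 1. Epas1, which encodes HIF-2 alpha, a hypoxia factor of endothelium, had 4, 0, 1 and 2 at HB and 15, 7, 24 and 20 at HE1, a log2 change of 2.37 ± 0.80 (SE; adjusted p = 0.0185). In replicate 2 it had 2 and 4, and the log2 change was -0.66. The receptor gene Kdr, whose product is FLK1, had 18 and 70 positive fragments in replicate 1 (4.62 and 6.87 per 10000, adjusted p = 0.463) and 5 and 6 in replicate 2, or 4.10 and 1.72 per 10000. Egfl7 as a gene held 37 and 108 (9.50 and 10.6 per 10000, adjusted p = 0.917), since its other regions already had fragments at HB. S1pr1, a receptor for sphingosine phosphate, had 11 and 59 (adjusted p = 0.202), and Ets1 31 and 83 (adjusted p = 1.00).

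Genes of TEAD, YAP and Hippo signalling, which senses shape and adhesion, held 25.9 and 39.3 fragments per 10000 in replicate 1, and 11 of 13 tested genes were above 0 with a median of 0.81. Their Negative gate held 26.1 and 37.0. In replicate 2 the list held 20.5 and 17.8 per 10000, the opposite direction. None rose past the threshold and 1 fell. That gene was Tead3, with 3, 4 and 6 fragments in HB Low, Medium and High and 0 in every HE1 gate, at least 10.5-fold lower (adjusted p = 1.76e-04), while replicate 2 had 1 and 1. Tead1, another TEAD factor, had 15 and 73 (adjusted p = 0.229), then 2 and 9. Matrix genes went from 35.2 to 44.4 per 10000, with 8 of 12 above 0 and Col18a1 called higher. Col18a1 had 3 and 53 positive fragments (log2 change 2.55 ± 0.80, adjusted p = 0.00668) but 6 and 10 in replicate 2 (log2 change -0.82).

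The AP-1 family list went from 28.0 to 29.1 per 10000 with 5 of 8 above 0 and 1 called. Jun had 0 at HB and 5, 14 and 10 in HE1 Low, Medium and High, with 12 in Negative (at least 3.57-fold, adjusted p = 0.0166), while Fos, which held most fragments, had 70 and 137 (18.0 and 13.4 per 10000, adjusted p = 0.277). In replicate 2 Jun had 2 and 4, or 1.64 and 1.15 per 10000, the opposite direction. Among genes of VEGF signalling, Prkca, a protein kinase C, had 0 and 24 in replicate 1 (at least 3.06-fold, adjusted p = 0.0368) but 2 and 1 in replicate 2, or 1.64 and 0.287 per 10000. The list as a whole held 67.3 and 63.1 per 10000 with 8 of 19 above 0. The BMP and TGF-beta list went from 42.9 to 49.3 per 10000, with 9 of 17 above 0 and 1 called higher.

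Lists of mesoderm and pluripotency factors held fewer fragments at HE1 in replicate 1, relative to all fragments, with no gene called in either. Mesoderm and cardiac factors went from 34.9 to 25.5 per 10000 with 4 of 16 above 0 and a median of -0.31, and pluripotency factors from 27.5 to 19.7 with 1 of 7 above 0 and a median of -0.29. The Negative gate went the same way, from 33.2 to 27.1 for mesoderm and from 29.7 to 20.1 for pluripotency factors. Hand1, a mesoderm factor, had 25 and 28 fragments (6.42 and 2.75 per 10000, adjusted p = 0.0758). In replicate 2 the mesoderm list held 19.7 and 28.7, and the pluripotency list went from 20.5 to 14.1. In the Wnt list, from 31.1 to 27.3 with 6 of 14 above 0, Tcf7, a nuclear effector of Wnt, fell from 12 fragments to 4 (3.08 and 0.392 per 10000, adjusted p = 0.0121), against 1 and 6 in replicate 2. Blood factors went from 49.0 to 39.3 with 6 of 16 above 0, blood surface genes from 24.4 to 28.6 with 5 of 13, and the Notch list from 34.9 to 34.8 with 4 of 10, none called. Neuronal synapse genes, taken as a list foreign to these cells, went from 25.7 to 23.0 with 4 of 10 above 0. Their median was -0.30, close to those of the mesoderm and pluripotency lists, so by this measure the fall was not particular to those lists. In replicate 2 the neuronal list held 51.6 and 64.1 per 10000.

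**Figure D4:**
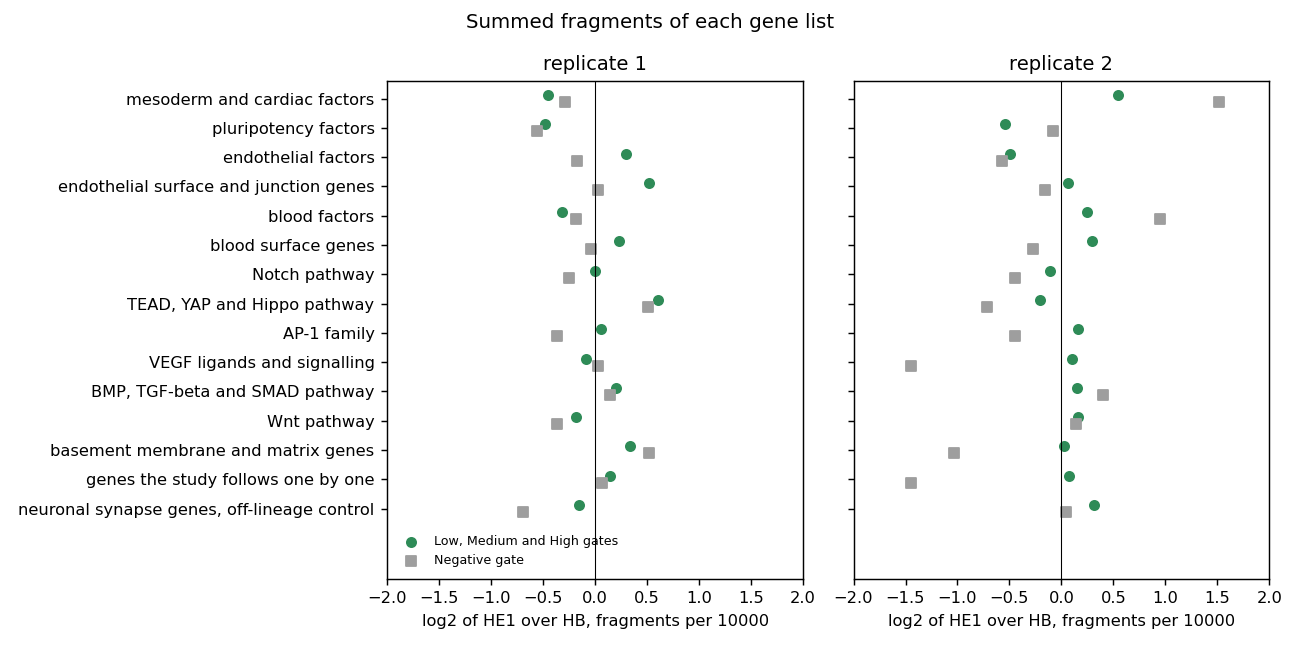
Change from HB to HE1 of the summed fragments of each gene list (log2 of fragments per 10000, horizontal axis) in replicate 1 and replicate 2, for positive and for Negative libraries. Endothelial surface genes and TEAD genes lie to the right and mesoderm and pluripotency factors to the left for positive libraries of replicate 1, and in the Negative gate the TEAD list also lies to the right and the mesoderm and pluripotency lists to the left.

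Of 8 genes that the study followed one by one, none was called in either replicate. Runx1, the factor needed to form blood from endothelium, had 27 positive fragments at HB and 40 at HE1 of replicate 1 (6.93 and 3.92 per 10000, log2 change -0.83 ± 0.36 SE, adjusted p = 0.215), and 5 and 16 in replicate 2, a log2 change of 0.07. Its intronic region 3652 bp downstream of a start site, on chromosome 16 from 92822070 to 92822770, had 2, 0, 8 and 2 fragments at HB and 3, 2, 2 and 3 at HE1 of replicate 1 (adjusted p = 0.148). Its region from 92801605 to 92801955 had 0 in every HB gate and 2, 1, 0 and 2 in the HE1 gates. Neither had a fragment at either stage of replicate 2. In replicate 1 Runx1 had positive fragments in 5 regions at HB and 10 at HE1, and all 5 were among the 10. In replicate 2 the HB regions starting at 92818735 and 92830939 were positive at HE1. Those starting at 92737284, 92830629 and 93041557 were not.

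Spi1, which encodes PU.1, had 8 and 20 positive fragments (adjusted p = 1.00). Its intronic region 589 bp from the start site had 0 in all HB gates and 8, 3, 4 and 6 in those of HE1 (adjusted p = 0.197). Pxn, the focal adhesion gene paxillin, had 2 and 28 (adjusted p = 0.110), then 0 and 1. Hspg2, the basement membrane proteoglycan perlecan, had 14 and 66 (adjusted p = 0.251), then 3 and 5, or 2.46 and 1.44 per 10000 in replicate 2. Sparc, a matrix glycoprotein gene, had 28 and 70 (adjusted p = 0.977), Dlk1 6 and 11, and Eif2b3 0 and 10 (adjusted p = 0.308). Galnt1 had no positive fragment at HB or HE1.

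Sequence content moved with the stage in replicate 1, in all gates. AP-1 matches stood between 3.50 and 3.70 per 10 kb in the 3 positive HB libraries and between 6.13 and 6.81 in the 3 HE1 libraries, with means of 3.61 ± 0.103 and 6.40 ± 0.360 (SD over the 3 gates of 1 sort, which are not biological replicates). The ranges did not overlap. The Negative library went from 3.58 to 6.30. ETS matches went from 5.57 to 7.57 (Negative 6.03 to 7.68), SOX from 4.11 to 5.04, TEAD (GGAATGC or GGAATGT) from 3.39 to 4.17, and RUNX from 4.04 to 4.80. CTCF matches went the other way, from 3.38 to 2.76, and KLF matches (GGGCGTG or GGGTGTG) from 6.29 to 5.38. In replicate 2 AP-1 matches went from 2.81 to 2.49 and ETS matches from 3.93 to 3.75. Over the 6 pairs of libraries none of the 14 motifs passed, with a lowest adjusted p of 0.389 (exact permutation, smallest unadjusted p possible 0.031, with the gates of a sort taken as separate pairs).

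**Figure D5:**
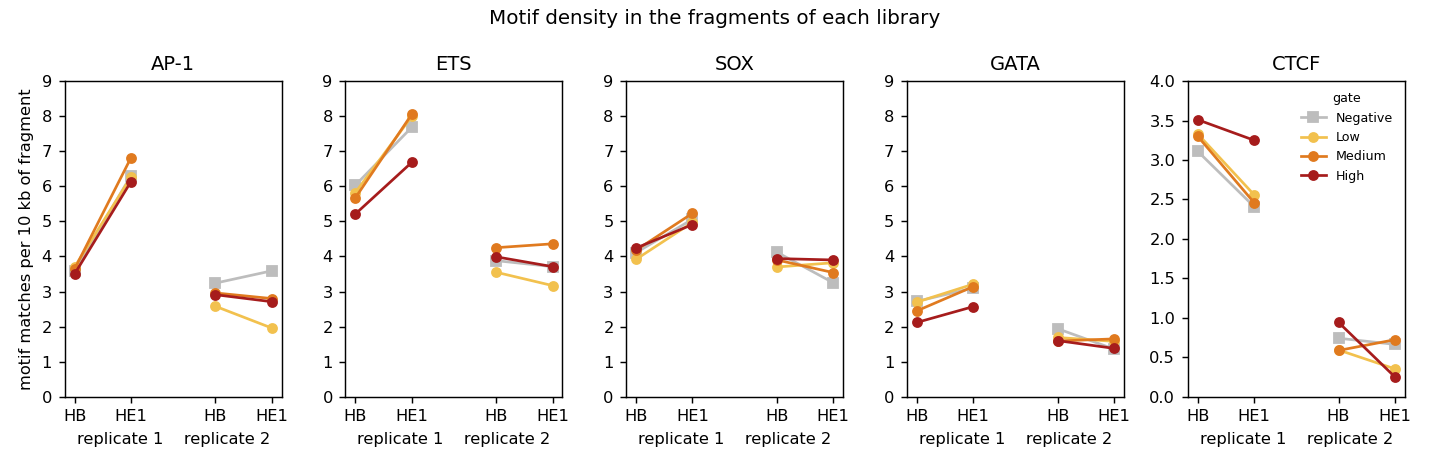
Motif matches per 10 kb in HB and HE1 libraries, one panel per motif, with a line per gate and replicate and squares for the Negative gate; the CTCF axis has its own scale. The means of the positive AP-1 points are 3.61 and 6.40 in replicate 1 and 2.81 and 2.49 in replicate 2.

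Gained and lost regions differed in AP-1 matches, in opposite directions in the replicates. In replicate 1, HE1 fragments of gained regions held 9.85 AP-1 matches per 10 kb and HB fragments of lost regions 2.19, while fragments of kept regions held 3.86 at HB and 4.31 at HE1. ETS matches ran 9.77 in gained, 4.20 in lost, and 5.78 and 6.14 in kept regions, and SOX matches 6.58, 4.41, 4.12 and 4.13. In replicate 2 gained regions held 1.90 AP-1 matches and lost ones 3.13, and ETS matches ran 3.24 and 4.38. Windows of 300 bp around the centre of each region were searched as well. In replicate 1, 24.9% of 2875 regions with at least 5 HE1 fragments and none at HB held an AP-1 match. The share was 3.85% of 104 regions with at least 5 HB fragments and none at HE1. It was 11.6% of 2014 regions with at least 5 fragments at both stages, and 9.79% of all 74629 windows of the series. ETS matches stood in 26.2%, 10.6%, 16.5% and 13.3% of them. The windows of the series cover both replicates and include regions with fewer fragments, so the regions with fragments at both stages are the closer comparison. Of all windows of the series 12.9% held a RUNX, 12.4% a SOX, 9.73% a TEAD, 10.6% a KLF and 2.73% a CTCF match, on either strand. In replicate 2, 3.82% of 314 such gained regions held an AP-1 match. Regions gained in both replicates held one in 18.0% of 518, lost ones in 4.93% of 142 and kept ones in 6.75% of 489. These regions were grouped by fragments of all positive gates, and the shares carry no test.

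Base composition and place moved with the motifs. Mean GC content went from 56.8% to 55.1% in positive libraries of replicate 1 and from 56.9% to 55.1% in its Negative libraries, and from 50.3% to 49.4% in replicate 2 (mean difference -1.25 points, adjusted p = 0.125, exact permutation over 6 pairs). Exons held 8.47% of HB and 6.26% of HE1 fragments in replicate 1 and introns 41.5% and 44.8%. The median distance to a start site went from 15229 to 17560 bp in replicate 1 and from 23636 to 25600 bp in replicate 2, in 6 of 6 pairs, with an exact permutation p of 0.031 over gate pairs and an adjusted p of 0.125. These pairs are 3 gates of each of 2 replicates, and over 2 independent replicates the smallest p is 0.5. Gained regions of replicate 1 had a mean GC content of 50.8%, lost ones 53.8% and kept ones 55.6%. The part of base composition in the motif counts was not tested.

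Fragments with identical ends at both stages allowed activity to be followed without regions, although identical ends do not prove that both came from the same construct. In replicate 1, 93.4% (95% exact interval 92.6% to 94.2%) of the 4025 shared fragments that were positive alone at HB were positive at HE1, against 89.4% (86.7% to 91.8%) of the 606 that were negative alone at HB. In replicate 2 the shares were 92.2% of 2898 and 71.7% (66.7% to 76.3%) of 353. The shares over all HE1 fragments were 89.6% and 96.6%, which depend on how many fragments each gate held. The share was thus lower for fragments dark at HB, by 4.00 percentage points in replicate 1 and 20.6 in replicate 2, and the intervals did not overlap in either. The difference of replicate 1 was 13.8 points without HE1 Medium, 1.77 without HE1 High and 2.11 with ends matched to within 5 bp, and that of replicate 2 was 12.9 with ends matched so. With 2 replicates the smallest exact permutation p is 0.5.

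The HE1 gate of such fragments was set beside their HB gate, a view chosen after the gate counts were seen. In replicate 1, 283 fragments of HB Negative were found in HE1 High and 314 in HE1 Negative, a ratio of 0.901. The ratio was 1.03 for HB Low (262 and 255), 1.75 for HB Medium (1056 and 602) and 2.30 for HB High (1255 and 546). As a share of the fragments found in either gate, with a fragment in both counted in each, HE1 High took 47.4% (95% exact interval 43.3% to 51.5%) for HB Negative and 69.7% (67.5% to 71.8%) for HB High. In replicate 2, where HE1 High was small, the ratio was 0.160 for HB Negative, 0.249 for Low, 0.188 for Medium and 0.285 for High. HB Negative was the lowest and HB High the highest in both replicates, and Low and Medium changed order. With ends matched to within 5 bp the ratios of HB Negative and High were 1.01 and 1.91 in replicate 1 and 0.165 and 0.278 in replicate 2.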

How the data were processed

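Genomic DNA of sorted cells was amplified across the reporter inserts and sequenced. The deposited files hold the coordinates of unique fragments (GRCm38, mm10), one list per library, with no read counts, so read depth is unknown and each fragment counts once. The authors' processing notes name Trim Galore, Bowtie2, SAMtools, bedtools and HOMER; versions are not given in the sources used here. Their methods describe removal of duplicates, of background from untransfected cells and of fragments outside open chromatin of the stage, and a split by distance to promoters; which of these steps shaped the deposited lists is not stated. PCR without molecular identifiers and these filters can change which fragments are listed.

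Sample titles gave the stage, the gate and the replicate number of each library. Overlapping fragments of the 40 libraries were merged into regions, and each region was assigned to the gene with the nearest RefSeq start site. The larger positive set was thinned to the smaller in 20 seeded draws. Regions and genes with at least 10 positive fragments were tested within each replicate by a two-sided Fisher's exact test on all positive fragments, with Benjamini-Hochberg adjustment and a threshold of 0.05. Log2 changes had 0.5 added to counts. Features and motifs were compared over 6 pairs of libraries by exact permutation, in which gates of the same sort count as separate pairs although they are not independent. Intervals are exact (Clopper-Pearson, 95%) and, like the Fisher tests, cover counting error only, since overlapping fragments of 1 library are not independent replicates. A fold against a stage with no fragment is a bound against 3 counts. Alternatives were other minimum counts, collapsing of near-identical fragments, another gene assignment, a Cochran-Mantel-Haenszel test with the replicate as block, limma, and leaving out libraries.

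Replicate numbers came from the sample titles. Identical positive fragments of HB and HE1 made up 10.1% and 29.0% of the smaller set within replicates 1 and 2, and 0.330% and 1.97% across them.

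The rule for names took the 10 regions gained, lost and kept in both replicates with the highest values, the up to 4 genes of each list with most positive fragments, list genes called in 1 replicate with the same direction in the other, and 8 genes followed by the study. Regions and genes called in a single replicate fall outside that rule and were chosen after their values were seen. Some genes that the rule or the tests would name are not reported here. Members and lists were chosen with earlier results of these data known. On simulated counts for the regions of replicate 1, 54.0% of 8-fold and 14.0% of 4-fold increases were called, and 3 of 3901 unchanged regions. Of the decreases, 66.0% at 8-fold and 22.0% at 4-fold were called. The simulated counts had random sampling error only, without the uneven spread over libraries seen in the real counts. They do not give the rate of false calls in these data. Python 3.11.15, numpy 2.4.6, pandas 2.3.3, scipy 1.17.1, matplotlib 3.10.9, R 4.3.3 and limma 3.58.1 were used.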

Additional observations from a re-analysis of the deposited data

Results flagged for a closer look

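In replicate 1 all 3 pairs of positive libraries moved one way and in replicate 2 all 3 moved the other way for 3 motifs. AP-1 matches differed by 2.79 per 10 kb (HE1 minus HB) in replicate 1 and by -0.324 in replicate 2. TEAD matches differed by 0.784 and -0.358, and RBPJ matches by 0.422 and -0.713. The difference between the replicates was not tested.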

How the results depend on the processing

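Of 382 alternatives over 27 results, 325 kept the direction and the side of the threshold or stayed near the main value. Part of that count was fixed in advance, as leaving out a library of 1 replicate cannot change the calls of the other. For values without a test, near meant within the SD between replicates. Kept shares of 18.1% and 56.3%, each from 1 replicate, thus counted as near the mean of 37.2%. Matching identical fragments in place of regions gave a mean kept share of 7.0%. The same-direction share in the other replicate was 46.8% without thinning, 46.2% with fragments within 5 bp collapsed and 53.2% without the 2 libraries that stood apart. The stage difference in sharing was 8.66 points without thinning (exact permutation p = 0.0200), 3.06 collapsed (p = 0.0400), 3.19 with Negative libraries (p = 0.0212) and 3.58 without the 2 libraries (p = 0.0200), and ran from -0.0213 (without replicate 1) to 6.13 points with a replicate or library left out.

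With the replicate block, 15 regions and 29 genes were called, and with replicates pooled and no block 56 regions and 72 genes. Called regions of replicate 1 numbered 113 at a minimum of 20 fragments and 36 collapsed. At a minimum of 5 there were 100, 45 higher and 55 lower. In Negative libraries 1 was called, but only 723 regions could be tested there, against 4101 in positive libraries. For positive relative to Negative fragments, 0 of 2419 regions were called in replicate 1 and 2 of 6 in replicate 2. With a library left out, called regions of replicate 1 ran from 5 (without HB Medium) to 183 (without HE1 High). They numbered 16 without HB Low and 10 without HB High. Called regions of replicate 2 numbered 18 at a minimum of 20, 9 at a minimum of 5, 0 collapsed and 9 without the 2 libraries. They ran from 2 (without HB Low or HB Medium) to 19 (without HE1 Medium or HE1 High). Called genes of replicate 1 numbered 225 by gene body and 25000 bp around it and 67 without the 2 libraries, and ran from 11 (without HB Medium) to 162. Those of replicate 2 numbered 14 at a minimum of 20, 3 at a minimum of 5, 0 collapsed, 0 by gene body and 12 without the 2 libraries, and ran from 1 to 12 (without HE1 Low).

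The length difference turned to -4.25 bp without the 2 libraries, and ran from -22.3 to 47.0 bp with a pair or replicate left out (-8.60 without the Low pair of replicate 2). With a replicate or pair left out, the difference ran from -0.144 (without replicate 1) to 3.29 points for introns, -1.08 to 0.512 points between genes (0.0905 collapsed), and, in matches per 10 kb, -0.324 to 2.79 for AP-1, -0.187 to 2.01 for ETS, -0.0883 to 0.550 for GATA and -0.0901 to 0.923 for SOX, the low end each time without replicate 1. The cause was not tested. Leaving out a Negative library was not run for identical fragments. Most regions of replicate 2 held too few fragments for the test.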
